A study of Mus musculus with 6 samples.

Results

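Insulin and leptin signalling was examined in the lateral septum (LS) through 10 genes taken by symbol from the deposited tables, namely Insr, Lepr, Irs1, Irs2, Pik3r1, Akt2, Foxo1, Slc2a4, Socs3 and Ptpn1. All 10 were found once among the 35415 genes of the tables, and all 10 passed the filter on low counts that left 17255 genes to test. The libraries came from wild-type female C57BL/6 mice, obtained at about 8 weeks of age and kept for 12 weeks either on control chow or on the same chow with olanzapine added (50 mg per kg). Olanzapine is a second-generation antipsychotic that is known for weight gain. Each library was made from the micro-dissected septa of 3 mice combined, and each group has 3 such pools (n = 3 throughout), which leaves the variation from mouse to mouse unmeasured.

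Insulin binds the receptor tyrosine kinase encoded by Insr, which phosphorylates the insulin receptor substrates Irs1 and Irs2. These recruit PI3-kinase, whose regulatory subunit is encoded by Pik3r1, and the lipid it makes activates AKT kinases, which exclude FOXO transcription factors from the nucleus and send the glucose transporter encoded by Slc2a4 to the cell surface. Leptin binds the receptor encoded by Lepr, which signals through JAK2 and STAT3 and induces Socs3, a feedback inhibitor. The phosphatase encoded by Ptpn1 dephosphorylates the insulin receptor and JAK2, and thereby restrains both hormones. In the brain both hormones are best known for lowering food intake, mainly through the hypothalamus.

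None of the 10 genes was called changed in the olanzapine pools. Under the quasi-likelihood test of edgeR, adjusted over all tested genes by the Benjamini-Hochberg method, 0 of 10 had an adjusted p under 0.05, where 2.32% of all tested genes did (1.83% higher and 0.493% lower). With a log2 fold change beyond 1 required as well, 1.01% of all tested genes and 0 of the 10 passed. An unadjusted p under 0.05 was reached by 2 of the 10, Irs1 and Insr, both lower, against 17.6% of all tested genes in either direction and 8.40% in the lower direction. DESeq2, which called 6.69% of all tested genes, and limma on FPKM also called 0 of the 10. The log2 fold change (olanzapine minus control) was negative for 7 and positive for 3, with a median of -0.14, beside a median of 0.0039 over all tested genes. The 95% interval of the change lay within a 2-fold change in either direction for 7 of the 10. The exceptions were Lepr, Slc2a4 and Socs3, the genes with the fewest counts, for which these pools do not bound the change as closely.

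**Figure D1:**
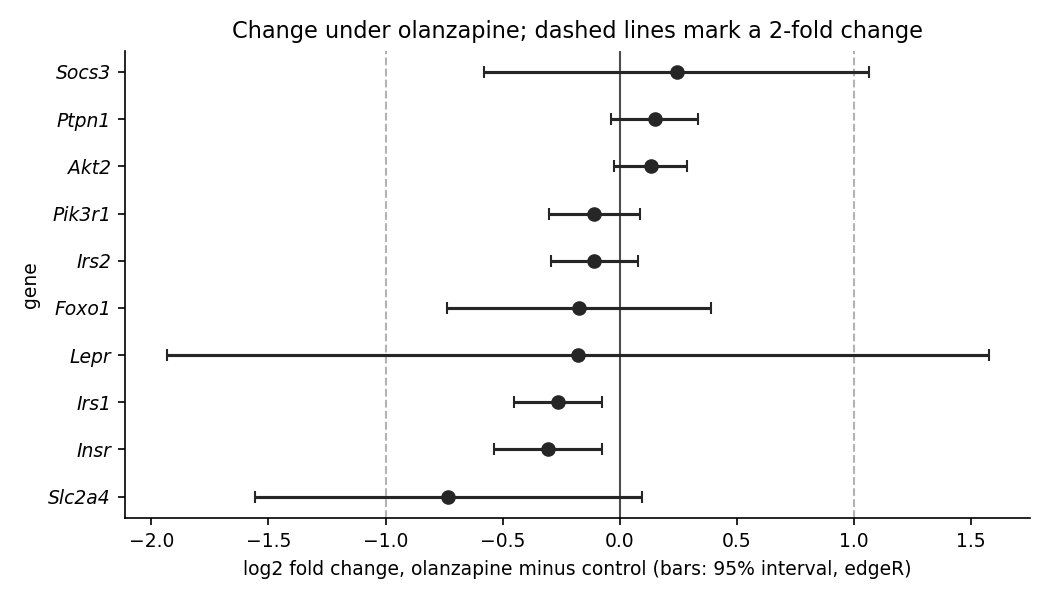
Log2 fold change of the 10 genes (x axis, olanzapine minus control, from edgeR on counts of 3 against 3 pools), with bars for the 95% interval and dashed lines at a 2-fold change. The intervals of Insr and Irs1 lie below 0 before adjustment for multiple tests, and those of Lepr, Slc2a4 and Socs3 cross a dashed line.

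The counts on genes summed to between 38208153 and 39868872 per library. In the list of lateral septum neuron markers, led by Sst and Gad2, all 10 were expressed, with a summed FPKM (fragment counts scaled by transcript length and library size) of 425 to 485 in the control pools and 408 to 479 in the olanzapine pools, and 0 were called, although 5 of them had an unadjusted p under 0.05, all lower, and their median log2 fold change was -0.37. Of 14 hepatocyte markers other than Ttr, led by Alb and Apoa1, 14 were called higher. Their summed FPKM was 11.1 to 16.6 in the control pools and 157 to 207 in the olanzapine pools. Ttr, the other gene of this list of 15, was left out after the values were seen. It was not called (log2 fold change -0.82, edgeR). With Ttr the sum was 42.4 to 5203 in the control and 180 to 3526 in the olanzapine pools. Of 8 nuclear-retained RNAs, led by Meg3 and Snhg11, 6 were called higher (summed FPKM 318 to 380 and 667 to 756). Of 10 immediate early genes, led by Egr1 and Arc, 1 was called, Npas4. All 10 had a positive log2 fold change, 4 of them with an unadjusted p under 0.05, their median was 0.46, and their summed FPKM did not overlap between the control pools (129 to 180) and the olanzapine pools (183 to 321). No gene was called in the lists for choroid plexus, meninges and fibroblasts, endothelium, astrocytes, microglia, oligodendrocytes and striatal and cortical neurons, all of whose markers were tested. Of the markers for hypothalamus (6 of 8 tested), blood (5 of 6), striated muscle (4 of 8) and adipocytes (1 of 6), 0 of those tested were called. Among 8 astrocyte markers, led by Slc1a2 and Slc1a3, 4 had an unadjusted p under 0.05, all lower, and their summed FPKM did not overlap between the control pools (551 to 591) and the olanzapine pools (447 to 521). All 8 endothelial markers had a negative log2 fold change, 2 of them with an unadjusted p under 0.05. The part of these shifts in the results below was not tested. Where a fit with a marker sum as a covariate is given, only its values are reported.

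Per length, the 10 genes covered a wide range of levels, with gaps between some neighbours and overlap between others. Irs2 was the most abundant, with FPKM of 17.5 to 21.2 over the 6 pools and no overlap with the next gene. Akt2 (mean 13.98 over the pools), Foxo1 (11.5) and Pik3r1 (10.6) followed, and their ranges overlapped from each gene to the next. Ptpn1 (6.64 to 8.37) and Insr (5.23 to 7.53) overlapped each other but lay below Pik3r1 in all 6 pools. Irs1 stood alone at 2.02 to 2.48. Socs3 (0.399 to 0.924), Slc2a4 (0.248 to 0.805) and Lepr (0.0961 to 0.964) were the lowest, and the ranges of these 3 overlapped. Among the tested genes, ordered by mean FPKM, Irs2 stood at the percentile 81.5 and Lepr at the percentile 17.2.

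**Figure D2:**
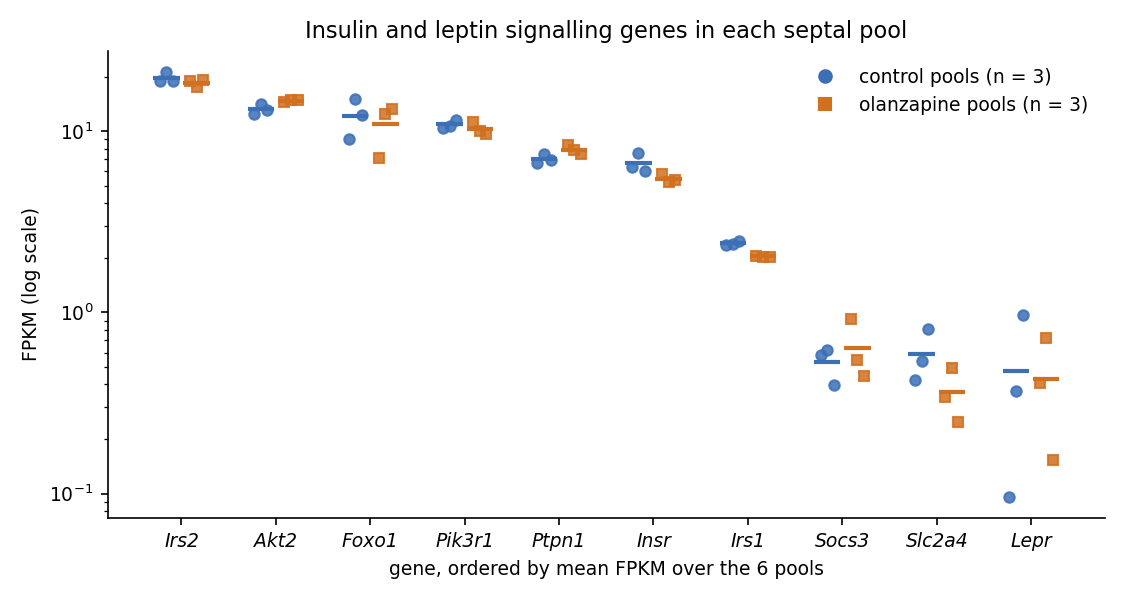
FPKM of each gene (log y axis) in the 3 control and 3 olanzapine pools, with a horizontal bar for the group mean and genes ordered by mean FPKM. Irs2 lies highest, between 17.5 and 21.2, Socs3, Slc2a4 and Lepr lie below 1 in every pool, and Lepr has the widest spread within each group.

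Insr, the insulin receptor, had normalized counts (scaled to a common library size with TMM factors) of 2377, 2788 and 2230 across control pools 1 to 3, against 2156, 1861 and 1966 across olanzapine pools 1 to 3. Every olanzapine pool lay below every control pool, a separation in either direction that 24.3% of all tested genes also showed. On the log2 scale the difference was -0.31 (SE 0.10), or a change of -19.1% with a 95% interval from -31.1% to -5.01%, and the adjusted p was 0.170 (edgeR). In bulk tissue such as this, fewer cells of a type and less RNA per cell cannot be told apart. The astrocyte marker sum was also lower in every olanzapine pool than in every control pool. Within the olanzapine group it was lowest in pool 1 (447), where Insr and Irs1 were highest. Its part in the levels of Insr and Irs1 was not tested. The Insr gene lies on the minus strand of chromosome 8 (chr8:3122061-3279617, GRCm38) and overlaps 2 genes annotated on the other strand. Irs1, Irs2 and Foxo1 each overlap 1 such gene, and without strand, reads of the partners cannot be told apart. The partner of Irs2, 9530052E02Rik, had a mean of 21 counts over the pools. Pik3r1 and Foxo1 also overlap annotated genes on their own strand. The related receptor gene Igf1r, which binds insulin-like growth factor 1, also had its olanzapine pools below its control pools, with normalized counts of 3051 ± 168 (SD, n = 3 pools) without and 2262 ± 348 (SD, n = 3) under olanzapine. It fell short of the threshold in edgeR (log2 fold change -0.43, adjusted p = 0.0994). Igf1r was called with DESeq2 (adjusted p = 0.0146) and without olanzapine replicate 1 (adjusted p = 0.0094, edgeR), where the log2 fold change was -0.56.

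Lepr, the leptin receptor, varied between pools more than any other of the 10 genes. Its normalized counts were 44.0, 165 and 432 across control pools 1 to 3, against 185, 312 and 68.4 across olanzapine pools 1 to 3. Both groups held a pool with few counts and a pool with many, and the groups overlapped. Its fold change on the log2 scale was -0.18 (SE 0.76), and the 95% interval ran from -1.94 to 1.58 (adjusted p = 0.929, edgeR). Neither a halving nor a doubling is outside this interval. The direction rested on single pools, since the log2 fold change was 0.87 without control replicate 3 and 0.22 without olanzapine replicate 3, and reached -0.75 without olanzapine replicate 2. The gene lies on the plus strand of chromosome 4 (chr4:101717404-101815352) and overlaps no other annotated gene. The tables hold a count per gene, so the long signalling form of the receptor and its short forms are summed.

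The level of Lepr moved with the choroid plexus markers of the pool. The choroid plexus is the epithelium that secretes cerebrospinal fluid into the ventricles beside the septum. The summed FPKM of 12 choroid plexus markers was 52.5, 1915 and 5415 across control pools 1 to 3, against 812, 3491 and 35.4 across olanzapine pools 1 to 3. Control pool 3 was highest and olanzapine pool 2 next in both measures, and control pool 1 and olanzapine pool 3 were the lowest pools in both. Ttr, the transthyretin gene that leads this list and that is also a liver gene, had FPKM of 26.6, 1817 and 5192 in the controls against 766, 3319 and 15.8 under olanzapine. The summed FPKM of 8 markers of meninges and fibroblasts, led by Igf2 and Dcn, was 12.1, 31.6 and 59.3 in the controls against 24.1, 45.6 and 8.54 under olanzapine. Most of the spread of this sum came from Igf2, a growth factor gene, with FPKM of 4.55, 19.7 and 47.1 in the controls against 12.9, 35.8 and 2.76 under olanzapine. Of the 8 markers, 2 (Igf2 and Dcn) had the pool order of the choroid plexus sum and 6 had another order. With the choroid plexus sum as a covariate, an alternative added after the values were seen, the log2 fold change of Lepr was 0.37 and its adjusted p was 0.531 (edgeR). Leprot, which encodes a protein that regulates the surface level of the leptin receptor, did not spread in this way. It had FPKM of 13.6 on average in the control and 12.7 in the olanzapine pools, so that the ratio of Lepr to Leprot ranged from 0.0077 to 0.0616.

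**Figure D3:**
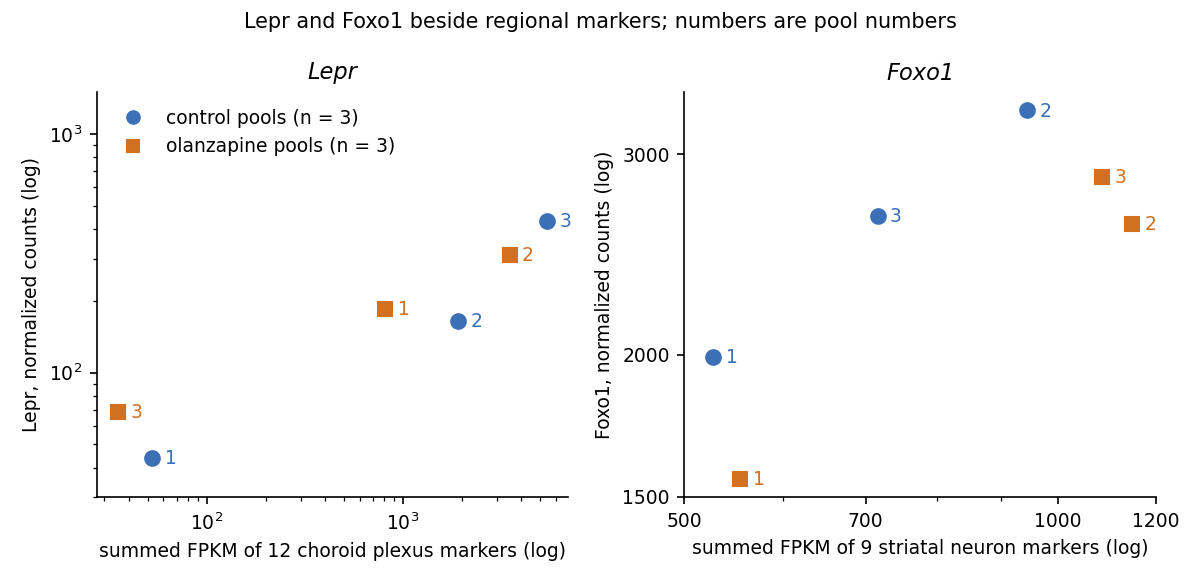
Normalized counts (log y axes) of Lepr against the summed FPKM of 12 choroid plexus markers and of Foxo1 against that of 9 striatal neuron markers (log x axes), with 1 point per pool and its pool number. Lepr runs from 44.0 to 432 and is high in the pools rich in choroid plexus markers, in both groups, and Foxo1 is lowest in control pool 1 and olanzapine pool 1, which have the lowest striatal sums.

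Irs1 and Irs2 encode the docking proteins that carry the insulin signal from the receptor to PI3-kinase. Irs1 had normalized counts of 855, 863 and 887 in the controls against 747, 699 and 723 under olanzapine. The pools of a group lay close together and the groups did not overlap. The change on the log2 scale was -0.26 (SE 0.08), or a change of -16.7% with a 95% interval from -26.9% to -5.14%. This was the smallest unadjusted p of the 10 genes (0.0119), but it ranked 1350 among all tested genes by p, and the adjusted p was 0.152 (edgeR). Irs2 had 5119, 5660 and 5026 normalized counts in the controls against 5076, 4494 and 5100 under olanzapine, which overlapped. Its log2 fold change was -0.11, SE 0.08 (95% interval from -18.5% to 5.67%, adjusted p = 0.539, edgeR). Irs1 lies on chromosome 1 (chr1:82233101-82291416) and Irs2 on chromosome 8 (chr8:10984681-11008458), both on the minus strand. Irs2 was 7.64 to 9.52 times as abundant as Irs1 in FPKM, and this held in all 6 pools.

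The genes whose log2 library-size-scaled counts followed Irs1 most closely over the 6 pools were Zfp964, 9330117O12Rik and Tm9sf3, with Pearson's r of 0.996, 0.995 and 0.993. With 6 pools that share the group difference, 77 of 17254 genes had an r above 0.95, so these are a description of the pattern. None of the 3 was called, with log2 fold changes of -0.45, -0.71 and -0.28.

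Pik3r1 encodes the regulatory subunit p85alpha of PI3-kinase. Its normalized counts were 4780, 4829 and 5162 in the controls against 5076, 4325 and 4312 under olanzapine. Olanzapine pool 1 lay among the control pools and the other olanzapine pools lay below them. Between the groups the log2 fold change was -0.11 (SE 0.08), and the 95% interval ran from -18.9% to 6.19% (adjusted p = 0.552, edgeR). Akt2 encodes the AKT kinase best known for insulin action on glucose uptake. It had 3547, 3948 and 3670 normalized counts in the controls against 4075, 4011 and 4164 under olanzapine, all above the control pools. The estimated log2 fold change was 0.13 (SE 0.07), with a 95% interval from -1.53% to 22.3% (adjusted p = 0.352, edgeR). Akt2 was the only one of the 10 genes whose olanzapine pools all lay above the control pools, and Insr and Irs1 were the only ones whose olanzapine pools all lay below. These 3 of 10 stand beside 24.3% of all tested genes, 13.3% higher and 11.0% lower. Pik3r1 lies on the minus strand of chromosome 13 (chr13:101680563-101768217) and Akt2 on the plus strand of chromosome 7 (chr7:27591552-27640826).

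Foxo1, on the plus strand of chromosome 3 (chr3:52268336-52353221), encodes the transcription factor that AKT excludes from the nucleus. Its normalized counts were 1991, 3277 and 2649 in the controls against 1555, 2604 and 2866 under olanzapine. Pool 1 was the lowest of each group, and the groups overlapped. Its fold change on the log2 scale was -0.17 (SE 0.24), with a 95% interval from -40.0% to 31.2% (adjusted p = 0.768, edgeR), and it was 0.02 without control replicate 2 and 0.05 without olanzapine replicate 1. Among the control pools Foxo1 had the same order as the striatal markers, and olanzapine pool 1 was the lowest of its group in both. The striatum borders the septum, and the summed FPKM of 9 striatal neuron markers, led by Penk and Ppp1r1b, was 527, 945 and 716 in the controls against 555, 1149 and 1086 under olanzapine. All 9 of these markers had a positive log2 fold change and 0 were called, so the sum itself leaned with the group. The part of striatal tissue in the Foxo1 level was not tested. With the striatal sum as a covariate, which was chosen after the values were seen, the log2 fold change of Foxo1 was -0.45 and its adjusted p was 0.0320 (edgeR), the only fit in which any of the 10 genes was called. In that fit 451 genes were called in all.

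Slc2a4, on the minus strand of chromosome 11 (chr11:69942539-69948188), encodes GLUT4, the glucose transporter of muscle and fat that insulin brings to the cell surface. Its normalized counts were low, at 52.9, 66.1 and 98.1 in the controls against 42.2, 58.3 and 30.2 under olanzapine. The groups overlapped, since olanzapine pool 2 lay above control pool 1. The change on the log2 scale was -0.73 (SE 0.36), the largest of the 10 in size in this fit, and the 95% interval ran from -66.0% to 6.82% (adjusted p = 0.338, edgeR). Without control replicate 3 the log2 fold change was -0.44, and with limma on log2(FPKM + 1) it was -0.22, smaller in size than that of Insr (-0.24). The summed FPKM of 8 striated muscle markers, led by Acta1 and Mb, was 4.07 to 5.68 in the control pools and 4.53 to 5.78 in the olanzapine pools, and that of 6 adipocyte markers, led by Retn and Fabp4, was 0.198 to 0.485 and 0.373 to 0.551. The other glucose transporters of the brain were far more abundant. Slc2a1, the transporter of the blood-brain barrier and glia, had a mean FPKM of 47.2 in the control and 41.0 in the olanzapine pools, and Slc2a3, the neuronal transporter, 19.4 and 20.05.

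Socs3, on the same strand and chromosome (chr11:117966079-117970047), encodes the inhibitor that STAT3 induces after leptin receptor activation. Its normalized counts were 62.9, 66.1 and 42.6 in the controls against 99.9, 56.3 and 47.2 under olanzapine. Olanzapine pool 1 was the highest of all and the other pools of the groups overlapped. Between the groups the log2 fold change was 0.24 (SE 0.36), with a 95% interval from -33.1% to 109% (adjusted p = 0.777, edgeR), and it was -0.15 without olanzapine replicate 1. Olanzapine pool 1 was also the pool with the highest summed FPKM of the 10 immediate early genes, at 321 against 183 and 195 in the other olanzapine pools and 129 to 180 in the control pools, and of 8 cortical glutamatergic markers, led by Camk2a and Slc17a7, at 670 against 279 to 346. The part of either in the Socs3 level was not tested.

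Because Socs3 is the STAT3-induced gene of the 10, promoters were searched for the STAT motif TTCNNNGAA, which reads the same on both strands, and on both strands for the FOXO motif TGTTTAC. RefSeq windows of 250 bases before to 50 after a start site (GRCm38.p6) matched 8 of the 10 genes, with 13 windows in all. Insr and Slc2a4 had no match by symbol. The STAT motif was found in 2 of the 13 windows, one each of Socs3 and Akt2, and in 8.30% of all 32851 windows. The FOXO motif was found in 0 of the 13 and in 3.65% of all windows. The parts of these 2 windows that lie before the start site and hold no annotated exon are shown, on the minus strand at chr11:117969452-117969616 for Socs3 and on the plus strand at chr7:27591302-27591551 for Akt2, with the motif in capitals. The Socs3 stretch lies between 2 annotated exons of the gene, and the Akt2 stretch ends at the first base before it.
Socs3: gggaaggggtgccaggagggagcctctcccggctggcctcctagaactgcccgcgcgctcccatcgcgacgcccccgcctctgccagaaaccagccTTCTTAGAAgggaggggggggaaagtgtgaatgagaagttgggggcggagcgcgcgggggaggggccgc
Akt2: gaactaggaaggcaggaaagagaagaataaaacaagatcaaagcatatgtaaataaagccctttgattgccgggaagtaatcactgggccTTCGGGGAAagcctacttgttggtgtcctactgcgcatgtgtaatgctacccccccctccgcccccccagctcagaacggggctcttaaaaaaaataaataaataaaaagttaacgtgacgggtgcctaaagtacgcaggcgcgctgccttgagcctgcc
Counted from the RefSeq start site of each window, the motif begins 154 bases before it in Socs3 and 160 bases before it in Akt2. The Socs3 start site of this window lies inside the span of the gene given above, and the stretch shown is in an intron of the annotated transcript that begins farthest upstream. A match of letters does not show that a factor binds there.

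Ptpn1, on the plus strand of chromosome 2 (chr2:167932057-167979385), encodes the tyrosine phosphatase PTP1B. Its normalized counts were 1565, 1736 and 1611 in the controls against 1960, 1755 and 1732 under olanzapine. Olanzapine pool 3 lay just below control pool 2, so the groups overlapped by this pair. The estimated log2 fold change was 0.15 (SE 0.08), or 10.9% with a 95% interval from -2.41% to 26.0% (adjusted p = 0.379, edgeR). Its close relative Ptpn2, which dephosphorylates JAK and STAT proteins, had every olanzapine pool above every control pool, with normalized counts of 827 ± 85.6 (SD, n = 3 pools) without and 1149 ± 122 (SD, n = 3) under olanzapine. Ptpn2 was not called by edgeR (log2 fold change 0.47, adjusted p = 0.0822) but was called with DESeq2.

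The balance between each gene and a paralogue or partner was compared per pool as a ratio of FPKM, in 10 ratios. With 3 pools per group, the smallest p of an exact two-sided permutation test over the 20 splits is 0.1, so no ratio could pass 0.05. The groups did not overlap for 2 ratios. The ratio of Pik3r1 to Pik3r2, the gene of the other regulatory subunit, was 0.343, 0.342 and 0.368 in the controls against 0.272, 0.297 and 0.297 under olanzapine (exact permutation test, p = 0.1, adjusted p over the 10 ratios = 0.375). The ratio of Akt2 to Akt1, the more abundant kinase gene, was 0.215, 0.248 and 0.244 in the controls against 0.256, 0.269 and 0.260 under olanzapine (exact permutation test, p = 0.1, adjusted p = 0.375). The other ratios overlapped between the groups. Across all 6 pools the ratio of Insr to Igf1r was 1.02 to 1.28, that of Foxo1 to Foxo3 0.616 to 1.29, and that of Ptpn1 to Ptpn2 2.01 to 3.19. Slc2a4 had 0.0066 to 0.0155 times the FPKM of Slc2a1 and 0.0133 to 0.0439 times that of Slc2a3.

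**Figure D4:**
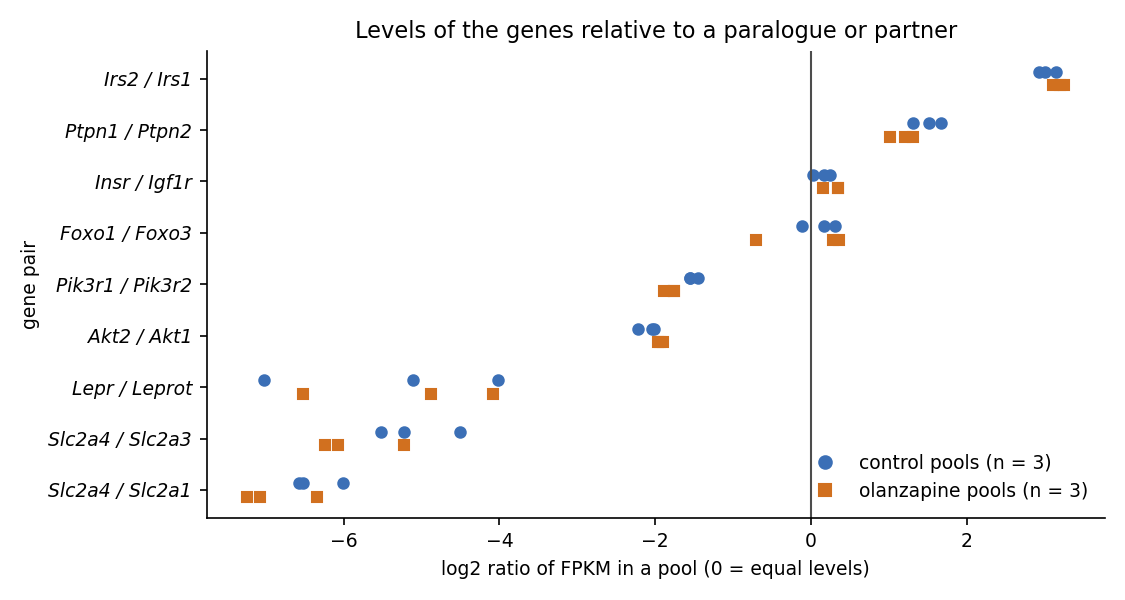
Log2 ratio of FPKM between a gene and a paralogue or partner (x axis, 0 marks equal levels), with 1 point per pool and the 3 control and 3 olanzapine pools on separate lines. Irs2 lies above Irs1 in every pool, Slc2a4 lies far below Slc2a1 and Slc2a3, and the groups are separate for the ratios of Pik3r1 to Pik3r2 and of Akt2 to Akt1 only.

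The rest of the insulin pathway was covered by a list of 63 other genes, of which 61 could be tested. Of these, 0 were called higher and 1 lower, beside 1.83% and 0.493% of all tested genes, and the median log2 fold change was -0.06 against 0.0039 over all tested genes. The called gene was Eif4ebp2, which encodes a repressor of cap-dependent translation that mTOR phosphorylates. It had 1118, 1187 and 1029 normalized counts in the controls against 806, 786 and 825 under olanzapine, without overlap, and a log2 fold change of -0.46, SE 0.09 (adjusted p = 0.0358, edgeR). Its call was lost in each of the 6 fits that left out 1 pool, with adjusted p from 0.0511 to 0.149. DESeq2, which called 6.69% of all tested genes, called 5 genes of the list, with Eif4ebp2, Gsk3b, Igf1r and Ptprf lower and Map2k2 higher.
An unadjusted p under 0.05 was reached by 4 genes of the list that were higher and 10 that were lower, beside 17.6% of all tested genes in either direction and 8.40% lower. By role, these were 3 of 13 adaptor genes, all lower, 2 of 8 PI3-kinase and AKT genes, both lower, 2 of 8 phosphatases and inhibitors, both lower, and 3 of 9 genes of the RAS-MAPK branch, all higher. Of the 3 tested ligand and receptor genes, 1 was higher and 1 lower, and 1 of 10 genes was lower in each of the mTOR branch and the group for glycogen, glucose transport and FOXO. The genes with the highest FPKM in the list, Mapk3 with 97.7 in the control and 104 in the olanzapine pools and Gsk3a with 83.8 and 93.6, were not called. The insulin genes themselves were at or near 0, with Ins1 at 0 counts in all 6 pools and Ins2 at 0, 7 and 18 counts in the control and 4, 2 and 1 in the olanzapine pools.

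Of 18 other leptin pathway genes, 17 could be tested, with 0 called higher and 1 lower, beside 1.83% and 0.493% of all tested genes. Their median log2 fold change was -0.02, beside 0.0039 over all tested genes. An unadjusted p under 0.05 (edgeR) was reached by 2 that were higher and 5 that were lower. Of all tested genes, 17.6% reached it in either direction and 8.40% in the lower one. The groups did not overlap for 3 that were higher and 5 that were lower (47.1%), beside 24.3% of all tested genes. The called gene was Il6st, which encodes gp130, the shared receptor subunit of the interleukin-6 family that signals through the same JAK and STAT proteins as the leptin receptor. Il6st had 4893, 4791 and 4482 normalized counts in the controls against 3329, 3193 and 3681 under olanzapine. No pool of one group reached the other, and the log2 fold change was -0.47, SE 0.08 (adjusted p = 0.0233, edgeR). The call was lost without control replicate 1, 2 or 3 and without olanzapine replicate 2, with adjusted p up to 0.104. DESeq2, at its share of 6.69% of all tested genes, called Il6st lower and Ptpn2 higher. Stat3 (log2 fold change -0.10, adjusted p = 0.479) and Jak2 (0.18, adjusted p = 0.309, edgeR) were not called and are named here because they carry the leptin signal. The genes with the highest FPKM, Ptpn11 and Jak1, were not called, and Lep, the leptin gene, had 0 counts in all 6 pools.

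Of 15 genes known as FOXO targets, 14 passed the count filter. The calls among them were 2 higher and 1 lower, beside 1.83% and 0.493% of all tested genes, with a median log2 fold change of -0.00012 beside 0.0039 over all tested genes. The called genes did not move one way. Pck1 and Igfbp1, which are strongly expressed in liver, were higher. Pck1, which encodes an enzyme of gluconeogenesis, had 3, 11 and 3 counts in the controls against 133, 176 and 138 under olanzapine, a log2 fold change of 4.71 (adjusted p = 0.00314, edgeR) that was called without any 1 pool as well. Igfbp1, which encodes a binding protein of insulin-like growth factors, had 0 counts in every control library and 29, 20 and 36 under olanzapine, which is at least 9.61-fold higher against a floor of 3 counts per library (adjusted p = 0.0207, edgeR). Its call was lost without any control pool and without olanzapine replicate 2 or 3, with adjusted p up to 0.0889. Beside these, the 14 hepatocyte markers other than Ttr were all higher in the olanzapine pools, and their part in the 2 rises was not tested. Sesn3, which encodes a stress-induced sestrin and had the highest FPKM of the list, was lower, with 3160, 3239 and 2634 normalized counts in the controls against 1977, 1753 and 2104 under olanzapine. Its log2 fold change was -0.63, SE 0.10 (adjusted p = 0.0235, edgeR). The call of Sesn3 was lost without control replicate 1 or 2 and without olanzapine replicate 2 or 3, with adjusted p up to 0.104. Txnip, next in FPKM, was not called (log2 fold change -0.47, adjusted p = 0.214, edgeR), although it was called lower with the striatal sum as a covariate.

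**Figure D5:**
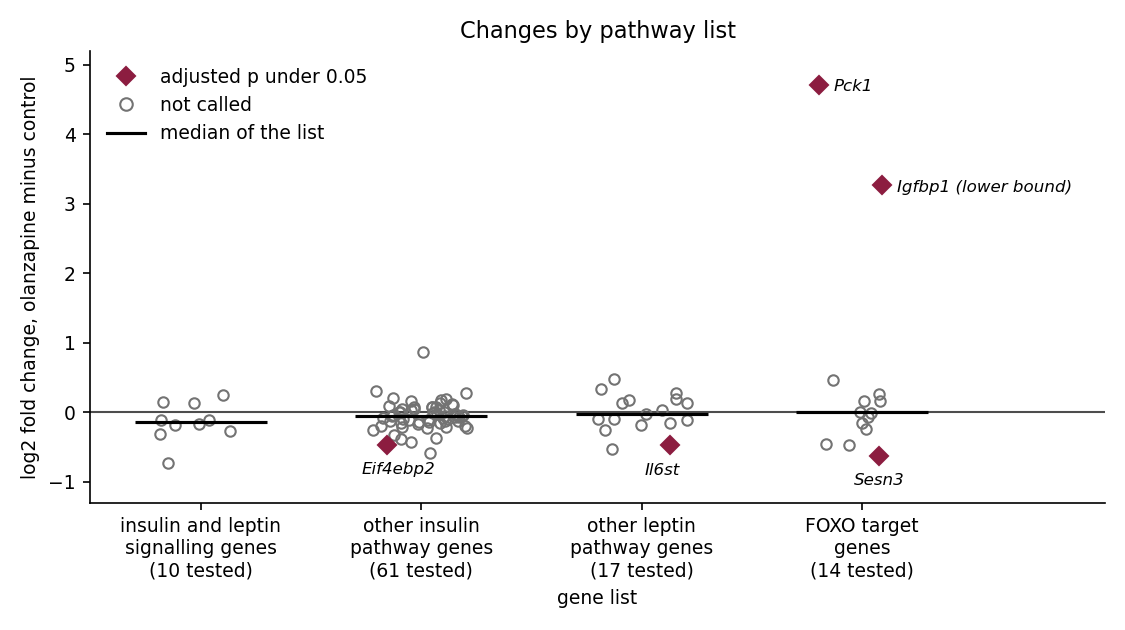
Log2 fold change (y axis, olanzapine minus control) of every tested gene in the 10 insulin and leptin signalling genes and in the lists of other insulin pathway, other leptin pathway and FOXO target genes, with diamonds for genes with an adjusted p under 0.05 and a bar for the median of each list. Igfbp1 is drawn at its lower bound, 0 of the 10 genes are called, and Pck1 and Igfbp1 lie above all other genes plotted.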

How the data were processed

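Septal RNA was sequenced as 6 libraries, 3 per group, each 1 pool of 3 mice. The authors trimmed the paired reads with fastp, aligned them with HISAT2 (mm10 in the submitters' processing notes) and counted them per gene with HTSeq, and deposited these raw counts. FPKM was computed and deposited by the authors. Strand setting, annotation and handling of reads with several matches are not given in the sources used here. Unused sample columns numbered 0, as did rows without a gene name.

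The counts were filtered with filterByExpr (minimum count 10, minimum total 15), normalized with TMM and tested by quasi-likelihood F test with edgeR 4.0.16 in R 4.3.3, with group as the only term. The adjusted p is Benjamini-Hochberg over 17255 genes. The standard error is the log2 fold change over the square root of F, and the 95% interval uses its t quantile. FPKM was used for levels, ratios and marker sums. DESeq2 1.42.0 and limma 3.58.1 were alternatives. The scripts were tested on simulated data. Every pair of libraries differed by more than sampling noise (lowest chi-square over its degrees of freedom 22.3).

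The genes and lists were chosen with earlier results of these data known. Named were the 10 genes, called genes of each list (up to 6), the 2 genes of highest FPKM in each list, both genes of each ratio and the 3 genes most like the one with the smallest p. Genes that DESeq2 alone called, Npas4, Ins1, Ins2, Lep, Jak2, Stat3, Ttr and the named background genes outside this rule were added after values were seen. Positions are from GENCODE M21 (GRCm38). The genes overlapping Insr, Irs1 and Foxo1 on the other strand were not analysed here. Of the ratios and list genes, 1 each is not reported here.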

Additional observations from a re-analysis of the deposited data

How the results depend on the processing

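The count of the 10 genes called was 0 under 16 of 17 alternatives, including a limit on the fold change and each fit without 1 pool, and 1 (Foxo1) with the striatal marker sum as a covariate, an alternative added after seeing the data. Irs1, Irs2, Insr, Pik3r1, Akt2, Ptpn1 and Slc2a4 kept their direction in all 16 alternatives that refit the fold change. Over the fits without 1 pool the log2 fold change nonetheless ran from -0.37 to -0.20 for Insr, -0.29 to -0.24 for Irs1, -0.14 to -0.05 for Irs2, -0.19 to -0.06 for Pik3r1, 0.10 to 0.18 for Akt2, 0.09 to 0.20 for Ptpn1 and -0.9995 to -0.44 for Slc2a4. Values over 1.5 times smaller were found for Irs2 without control replicate 2 or olanzapine replicate 2, for Pik3r1 without control replicate 3 or olanzapine replicate 2 or 3, for Ptpn1 without olanzapine replicate 1 and for Slc2a4 without control replicate 3, and one over 1.5 times larger for Pik3r1 without olanzapine replicate 1. Limma on log2(FPKM + 1), a pseudocount that shrinks low genes, also gave smaller values for Slc2a4 (-0.22), Irs1 (-0.17), Socs3 (0.0887) and Lepr (-0.0247), with or without the filter. With the striatal covariate Pik3r1 was at -0.0657, Lepr at -0.30 and Foxo1 at -0.45. The log2 fold change of Lepr changed sign with the replicate block (0.21), with limma on log2(FPKM + 0.1) (0.039) and with the choroid plexus covariate (0.37), and ranged from -0.75 to 0.87 over the fits without 1 pool. Foxo1 ranged from -0.34 to 0.0507 and Socs3 from -0.15 to 0.45 over the same fits.

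Calls over all genes numbered 401, and 1154 with DESeq2, 140 with the replicate block, 197 with limma on log2(FPKM + 1) without a filter, 174 with a log2 fold change beyond 1 required, and 131 to 508 without 1 pool. Of the insulin pathway list, 5 were called with DESeq2, 0 with the block, with unfiltered limma and with the fold limit, and 0 to 2 without 1 pool. Of the leptin pathway list, the counts were 3, 0, 0 and 0, and 0 to 1. Of the FOXO targets, 1 was called with unfiltered limma and 1 to 3 without 1 pool. The replicate block called 2, Pck1 and Txnip, so that Igfbp1 and Sesn3 were lost, and the striatal covariate called 4, with Txnip beside the 3 already called.

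No label pairs the pools by replicate number. The correlation of deviations from the group means was -0.0026, 0.0616 and -0.255 for pools 1, 2 and 3. For pairs of different number it ran from -0.351 to 0.339. These values cannot show whether pools of the same number shared a batch, so the block rests on the number alone. The low counts of Slc2a4 (30.2 to 98.1 normalized counts) and Socs3 (42.6 to 99.9) and the spread of Lepr limit what these pools show of those genes. The causes of these shifts were not tested.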
